A study of Mus musculus with 16 samples.

Results

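Hair follicle stem cells of early anagen (EA-HFSCs) were profiled for 3 trimethylations of histone H3, on lysine 4 (H3K4me3), lysine 27 (H3K27me3) and lysine 9 (H3K9me3), and the 3 peak lists are related to each other here. All peaks of these lists were taken, which gave 89293 peaks of the 219698 in the 12 lists of the series, 21482 of them for H3K4me3, 25534 of them for H3K27me3 and 42277 of them for H3K9me3. The cells came from the skin of male wild-type mice of the CD1 x FVB strain at postnatal days 22 to 25, with 15 to 20 animals pooled, and were sorted as CD34-positive and α6-integrin-positive bulge cells. The antibodies came from ActiveMotif for H3K4me3, Millipore for H3K27me3, Millipore and Abcam for H3K9me3 and Cell Signaling for the control IgG. The chromatin was cut to single nucleosomes with micrococcal nuclease. The material of each sort was divided among the 3 marks and the IgG, so that the lists share their cells and their background library. The other cells of the series were the CD34-negative cells sorted beside these at the same age (nEA-HFSCs), and the same pair of populations in late catagen, at postnatal days 38 to 44 (LC-HFSCs and nLC-HFSCs). Independent experiments were pooled before peaks were called, so that each mark has 1 list, no value here has a replicate error, and no test was made. The percentages in square brackets are Wilson intervals at 95% and cover counting error only.

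As background, H3K4me3 is laid down at the starts of genes, above all at promoters rich in CpG, and is found where genes are transcribed or ready to be. H3K27me3 is written by Polycomb repressive complex, with Ezh2 or Ezh1 as the enzyme, and covers silent developmental genes, where it can lie together with H3K4me3 in a state called bivalent. H3K9me3 is written by Suv39h1, Suv39h2 and Setdb1, is best known from heterochromatin and repeats, and is usually found away from the starts of active genes.

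To show what kind of sequence lay at the start of a gene in each combination of marks, the 200 bases upstream of 8 starts are printed from the NCBIM37 (mm9) genome, 5′ to 3′ on the strand of the gene. They belong to the gene that stood first, by the rank of its peaks, in each of the 7 combinations that hold a mark, and to Alb (serum albumin), a liver gene with none. Capitals mark each CpG.
Arhgef12, chr9:42913802-42914001, minus strand: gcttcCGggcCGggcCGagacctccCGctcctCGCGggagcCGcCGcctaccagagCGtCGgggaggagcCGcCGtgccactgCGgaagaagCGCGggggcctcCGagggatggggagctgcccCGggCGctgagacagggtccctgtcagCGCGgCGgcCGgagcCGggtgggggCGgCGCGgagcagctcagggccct
Rps2-ps5, chr14:69776711-69776910, plus strand: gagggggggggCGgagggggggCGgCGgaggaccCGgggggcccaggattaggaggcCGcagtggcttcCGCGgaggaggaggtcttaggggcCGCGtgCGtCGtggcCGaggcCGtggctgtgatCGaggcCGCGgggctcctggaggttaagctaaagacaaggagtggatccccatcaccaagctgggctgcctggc
Fezf1, chr6:23198265-23198464, minus strand: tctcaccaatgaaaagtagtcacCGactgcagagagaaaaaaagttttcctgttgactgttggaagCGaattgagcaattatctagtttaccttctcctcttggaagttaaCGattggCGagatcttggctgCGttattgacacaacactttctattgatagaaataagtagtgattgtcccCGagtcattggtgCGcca
Gorasp2, chr2:70499433-70499632, plus strand: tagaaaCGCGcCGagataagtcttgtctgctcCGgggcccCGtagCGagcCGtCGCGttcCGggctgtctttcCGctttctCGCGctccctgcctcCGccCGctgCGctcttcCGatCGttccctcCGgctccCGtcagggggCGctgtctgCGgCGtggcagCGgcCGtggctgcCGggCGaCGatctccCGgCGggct
Fam192a, chr8:97125627-97125826, minus strand: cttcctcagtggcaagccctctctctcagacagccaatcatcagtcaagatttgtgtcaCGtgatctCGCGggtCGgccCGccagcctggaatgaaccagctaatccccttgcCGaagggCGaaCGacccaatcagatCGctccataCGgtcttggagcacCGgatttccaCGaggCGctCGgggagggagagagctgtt
Gm5607, chr8:12385571-12385770, plus strand: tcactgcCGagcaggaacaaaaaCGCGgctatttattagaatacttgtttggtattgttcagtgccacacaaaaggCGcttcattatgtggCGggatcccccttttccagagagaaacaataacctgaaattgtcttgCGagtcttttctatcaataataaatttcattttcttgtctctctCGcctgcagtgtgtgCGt
Nr4a3, chr4:48057825-48058024, plus strand: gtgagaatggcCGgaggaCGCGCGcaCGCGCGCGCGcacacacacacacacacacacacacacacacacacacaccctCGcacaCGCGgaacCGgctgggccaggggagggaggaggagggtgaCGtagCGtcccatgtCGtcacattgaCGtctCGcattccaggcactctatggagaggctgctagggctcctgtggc
Alb, chr5:90889715-90889914, plus strand: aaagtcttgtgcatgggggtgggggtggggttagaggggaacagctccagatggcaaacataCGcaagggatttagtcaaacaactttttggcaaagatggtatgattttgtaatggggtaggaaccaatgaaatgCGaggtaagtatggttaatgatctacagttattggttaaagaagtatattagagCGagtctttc
The number of CpG in these 200 bases was 26 for Arhgef12 (H3K4me3), 16 for Rps2-ps5 (H3K27me3), 7 for Fezf1 (H3K9me3), 30 for Gorasp2 (H3K4me3 and H3K27me3), 14 for Fam192a (H3K4me3 and H3K9me3), 8 for Gm5607 (H3K27me3 and H3K9me3), 18 for Nr4a3 (all 3 marks) and 3 for Alb. These are single examples, and the CpG content of each whole group of genes is given with the genes.

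The 3 lists differed in the size of their peaks more than in the length of genome they covered. H3K4me3 peaks had a median width of 2279 bp and covered 56.1 Mb, which is 2.19% of the sequence without gaps. H3K27me3 peaks had a median of 1381 bp and covered 58.2 Mb or 2.27%. H3K9me3 peaks were the most numerous and the narrowest, with a median of 649 bp and 38.1 Mb or 1.48%. Each peak carries the authors' score, which rises as the p-value of the peak caller falls. The lowest score was 50 for H3K4me3 and 40 for the other marks, since the authors used a stricter limit for H3K4me3, and the median scores were 612 for H3K4me3, 68.8 for H3K27me3 and 54.5 for H3K9me3. Many H3K9me3 peaks thus stood just above the limit of calling. A score of 3100 was shared by 590 H3K4me3 and 40 H3K27me3 peaks while the highest scores were 3233.06 and 3220.76, so that the order among the strongest peaks is partly one of ties. The start of a protein-coding gene lay within 3000 bp of 57.8% of H3K4me3 peaks, 14.1% of H3K27me3 peaks and 26.0% of H3K9me3 peaks, while these windows hold 4.83% of the genome without gaps.

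The sorted cells were checked against marker genes, where a gene counts as carrying a mark if any peak falls in the 3000 bp to either side of its outermost annotated start. Of 14 genes known from bulge stem cells, 12 had H3K4me3 (85.7% [60.06 to 96.0]) and none had H3K27me3 (0% [0 to 21.5]). The shares of all 22367 protein-coding genes were 60.4% and 13.0%. Both intervals hold the share of all genes, so that these counts do not set the list apart by themselves. The H3K4me3 peaks of Cd34, Lhx2, Sox9, Tbx1, Nfatc1, Tcf7l1 and Foxc1 all scored 3100, while that of Lgr6 scored 815.82. Nfib and Runx1 had no peak at their outermost start but had H3K4me3 and H3K9me3 at other transcript starts, as did the basal keratinocyte genes Trp63 and Itga6. Each mark was looked for separately, and whether both lay at the same start was not examined. Of 12 genes of basal keratinocytes, 10 had H3K4me3 (83.3% [55.2 to 95.3]), and none had H3K27me3 (0% [0 to 24.2]), again with intervals that hold the shares of all genes. Lists for other skin cells gave 1 of 10 leukocyte genes with H3K4me3 (Sfpi1), 2 of 7 endothelial genes (Cldn5 and Kdr, both with all 3 marks), 4 of 9 melanocyte genes and 6 of 8 fibroblast genes. List members without a peak at any transcript start included Ptprc and Cd79a for leukocytes, Pecam1, Tek and Tie1 for endothelium, Tyr, Tyrp1 and Mlana for melanocytes, and Col3a1 and Lum for fibroblasts. Others of the same lists had H3K4me3, namely Dct, Mitf, Pmel and Kit for melanocytes, with scores from 97.26 at Dct to 1783.92 at Pmel, and Col1a1, Col1a2, Dcn, Postn, Pdgfra and Twist2 for fibroblasts, with scores from 70.37 at Twist2 to 1703.64 at Postn. The H3K4me3 peak counted for Pmel was also the one counted for the cell cycle gene Cdk2. The part that other cells took in the peaks was not tested.

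The first question was how often the peaks of different marks met. When overlapping or touching peaks of the 3 lists were joined, 66305 loci resulted, and 15655 of them (23.6%) held more than 1 mark. H3K9me3 alone made 21907 loci (33.0%), H3K27me3 alone 17073 (25.7%) and H3K4me3 alone 11670 (17.6%). Among the pairs, H3K4me3 with H3K9me3 was the most frequent with 7615 loci (11.5%), followed by H3K27me3 with H3K9me3 at 6034 (9.10%). The pair of H3K4me3 and H3K27me3 without H3K9me3 was the rarest combination, with 465 loci (0.701%). All 3 marks met in 1541 loci (2.32%), so that most loci with both H3K4me3 and H3K27me3 held H3K9me3 as well. The 1541 loci were built from 1727 H3K4me3, 1806 H3K27me3 and 4112 H3K9me3 peaks.

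Loci with more marks had larger median widths, and a union is at least as wide as any of its peaks. The median width was 1603 bp for H3K4me3 alone, 1211 bp for H3K27me3 alone and 557 bp for H3K9me3 alone. It was 3141 bp for H3K4me3 with H3K27me3, 3263 bp for H3K4me3 with H3K9me3, 1969 bp for H3K27me3 with H3K9me3 and 6101 bp for all 3. Joining added little for H3K4me3 with H3K9me3, since the H3K4me3 peaks that met H3K9me3 alone had by themselves a median of 3258 bp. At a score of at least 100 the pairs, in the same order, had medians of 4442.5 bp, 3568 bp and 5984 bp, so that H3K27me3 with H3K9me3 went from the narrowest pair to the widest. Loci of H3K4me3 with H3K9me3 lay near a gene start in 87.2% of cases and those of all 3 marks in 76.9%, compared with 36.5% for H3K4me3 alone and 3.26% for H3K9me3 alone. Loci of H3K27me3 with H3K9me3 did so in 12.2% of cases. The CpG ratio (observed over expected from the base content) followed the same division. Its median was 0.528 for H3K4me3 with H3K9me3, 0.428 for all 3 marks and 0.196 for H3K27me3 with H3K9me3, beside 0.191 for the genome.

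**Figure D1:**
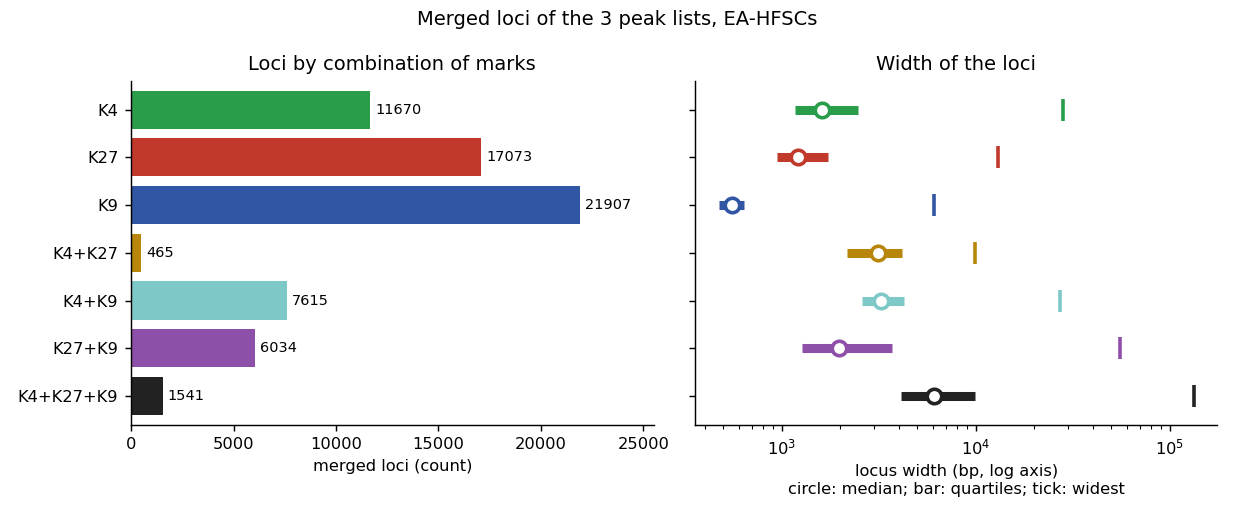
Number of merged loci (left panel) and their width in bp on a log axis (right panel; circles are medians, bars quartiles and ticks the widest locus) for the 7 combinations of marks in EA-HFSCs, with H3K4me3, H3K27me3 and H3K9me3 written as K4, K27 and K9. H3K9me3 alone is the most frequent combination with 21907 loci and all 3 marks together the widest, with a median of 6101 bp.

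The plot of loci by combination shows that frequency and width ran in different orders. The rarest combination had a median width close to that of the most frequent pair. Counted in bases, the marked sequence came to 123.5 Mb, of which 11.0 Mb carried H3K4me3 with H3K9me3, 11.7 Mb H3K27me3 with H3K9me3, 1.68 Mb H3K4me3 with H3K27me3 and 2.18 Mb (1.77%) all 3. The loci with all 3 marks spanned 13.6 Mb, so that most of their bases carried fewer than 3.

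Seen from the single peak, H3K9me3 met the other marks often. Of the H3K4me3 peaks, 42.7% overlapped an H3K9me3 peak by at least 1 bp, although H3K9me3 covered 1.48% of the genome. Whether an antibody also bound another mark, and how the material was divided between the H3K9me3 antibodies, cannot be told from the lists, and their part in any overlap was not tested. In turn 24.5% [24.1 to 24.9] of H3K9me3 peaks overlapped H3K4me3 and 28.4% overlapped H3K27me3. Of the H3K27me3 peaks, 30.5% overlapped H3K9me3 and 8.94% [8.60 to 9.30] overlapped H3K4me3. Of the H3K4me3 peaks, 10.2% overlapped H3K27me3. In bases, 34.7% of the H3K9me3 sequence lay under H3K4me3 and 36.4% under H3K27me3.

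Overlap with H3K4me3 was far more frequent at gene starts than elsewhere, while for the other marks this depended on which list was counted. Within 3000 bp of a start, 79.2% of 10944 H3K9me3 peaks overlapped H3K4me3, and elsewhere 5.38% of 31213 did. For H3K27me3 peaks the overlap with H3K4me3 was 46.4% near starts and 2.79% elsewhere. The share of H3K9me3 peaks on H3K27me3 was 27.5% near starts and 28.8% elsewhere, which is nearly the same, whereas that of H3K27me3 peaks on H3K9me3 was 55.6% and 26.4%. H3K4me3 peaks near a start overlapped H3K9me3 in 62.5% of cases and those elsewhere in 15.7%.

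The next question was which mark lay inside which. H3K9me3 was nested, that is, wholly inside 1 peak of the other list, in most of its overlaps. Of 10362 H3K9me3 peaks that overlapped H3K4me3, 8878 (85.7%) were nested in it, and 8183 H3K4me3 peaks served as hosts. A host held 1 H3K9me3 peak in 92.0% of cases and at most 4, and the nested peak covered a median of 42.2% of it. Of the nested peaks, 91.8% had their middle at least 25% of the host's width from either edge. Of 12026 H3K9me3 peaks that overlapped H3K27me3, 10069 (83.7%) were nested, in 6147 hosts. These hosts held 1 peak in 72.7% of cases and up to 27. The reverse was rare, since 2.28% of the overlapping H3K4me3 peaks and 0.769% of the overlapping H3K27me3 peaks were nested in H3K9me3.

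H3K4me3 and H3K27me3 met in a different way, either nested or side by side. Of 2192 H3K4me3 peaks that overlapped H3K27me3, 1112 (50.7%) lay wholly inside an H3K27me3 peak and 961 (43.8%) crossed its edge. The nested H3K4me3 peaks had a median width of 1775 bp and their hosts one of 6902 bp. Only 121 of 2283 overlapping H3K27me3 peaks (5.30%) were nested in H3K4me3. The distance between the middles of overlapping peaks had a median of 1018 bp for H3K4me3 peaks to H3K27me3 and 1067.5 bp the other way, 295 bp for H3K4me3 peaks to H3K9me3 and 345.75 bp the other way, and 367 bp for H3K27me3 peaks to H3K9me3 and 718.75 bp the other way. Relative to the width of the host, 83.7% of the nested H3K4me3 peaks but 66.0% of the nested H3K9me3 peaks had their middle at least 25% from either edge of the H3K27me3 peak.

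Peaks that did not overlap had their nearest peak of another mark at distances that differed between the pairs. An H3K27me3 peak off H3K9me3 had its nearest H3K9me3 peak at a median of 5941 bp, and 61.9% of all H3K27me3 peaks lay on or within 5000 bp of one. An H3K4me3 peak off H3K9me3 was 20101.5 bp from the nearest. The largest median was that of H3K4me3 peaks to H3K27me3, with 104756 bp, and in the other direction it was 41297 bp. For H3K9me3 peaks the medians were 44688 bp to H3K4me3 and 70492 bp to H3K27me3. These distances depend on how many peaks the target list holds. At a score of at least 100 the median from H3K27me3 to H3K9me3 was 49404.5 bp, close to the 51407 bp from H3K27me3 to H3K4me3, and that from H3K4me3 to H3K9me3 was 116342 bp.

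Whether a peak met another mark varied with its width and its score. When the peaks of each list were split by width into 5 groups of equal size, the share of H3K4me3 peaks with H3K9me3 rose from 7.70% in the narrowest group through 19%, 47.7% and 65.7% to 73.6% in the widest. For H3K27me3 peaks with H3K9me3 it went from 15.9% to 65.6%, and for H3K27me3 with H3K4me3 from 1.37% to 29.0%. H3K9me3 peaks with H3K4me3 went from 2.39% to 69.8%, and with H3K27me3 from 11.6% to 41.1% in the group before the widest and 40.6% in the widest. H3K4me3 peaks with H3K27me3 were the exception, with 8.85% in the narrowest group, 14.3% in the next and 5.40% in the widest. A wider peak has more bases on which another can fall, and the part of this in the rise was not tested.

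**Figure D2:**
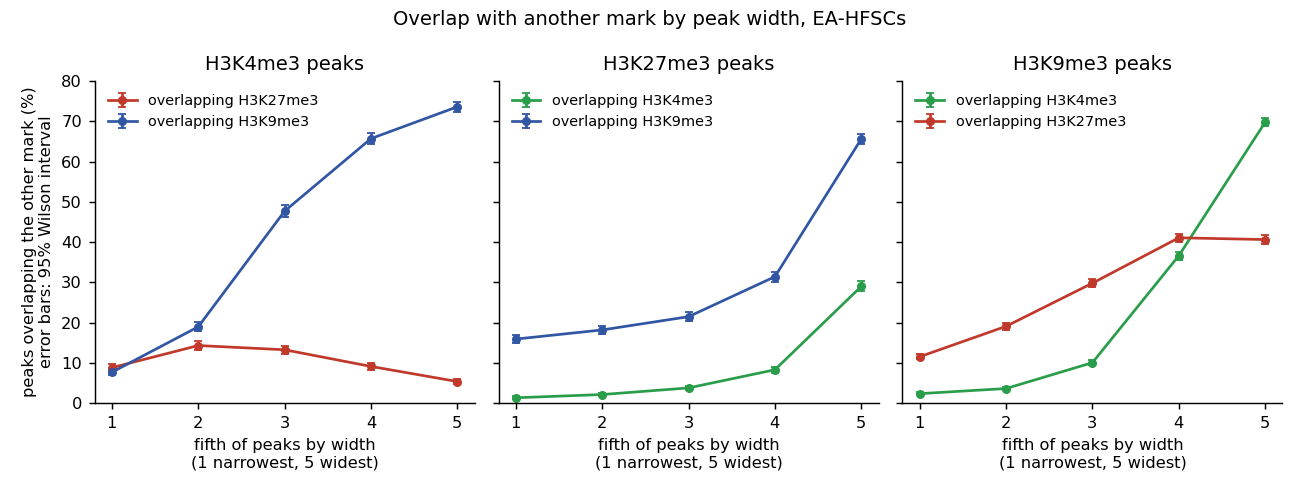
Share of peaks (%) that overlap a peak of another mark, for the peaks of each EA-HFSC list in 5 groups of equal size from the narrowest to the widest (points, with 95% Wilson intervals). The share is higher in the widest than in the narrowest group for every pair except H3K4me3 peaks with H3K27me3, which end at 5.40%.

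The score gave a similar picture. When each list was split by score into 10 groups of equal size, 88.3% of the H3K4me3 peaks in the highest group overlapped H3K9me3 and 6.98% in the lowest. For H3K27me3 with H3K9me3 these shares were 88.6% and 13.1%. H3K4me3 with H3K27me3 had its highest shares in between, with 9.03% in the lowest group, 20.8% in the fourth, 20.4% in the fifth and 2.09% in the highest. H3K4me3 peaks that met H3K9me3 alone had a median width of 3258 bp and a median score of 1498, against 1603 bp and 184 for those that met nothing and 1659 bp and 201 for those that met H3K27me3 alone. H3K27me3 peaks with both other marks had medians of 5022 bp and 500, against 1211 bp and 59.3 for those that met none. H3K9me3 peaks that met none had medians of 557 bp and 49.0, against 1377 bp and 101 for those with both.

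The widest loci give an idea of the extremes, and are given for 6 of the combinations. For all 3 marks it was the Hoxd cluster at chr2:74476284-74609153, 132870 bp with 10 H3K4me3, 2 H3K27me3 and 38 H3K9me3 peaks and the starts of 11 genes. H3K27me3 covered 99.9% of it, H3K9me3 86.2% and H3K4me3 14.6%. For H3K27me3 with H3K9me3 it was chr11:96019557-96074903, 55347 bp around Hoxb13. For H3K4me3 with H3K27me3 it was chr4:136387776-136397637 at Ephb2, a receptor of ephrins, with 9862 bp. The widest locus of H3K4me3 alone, chr8:87287703-87315941, lay inside Nfix, a nuclear factor I gene, and that of H3K9me3 alone, chr6:23195364-23201470, held the start of Fezf1. The widest of H3K27me3 alone, chr11:52368693-52381647, lay 158763 bp from the nearest start.

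At gene starts H3K4me3 with H3K9me3, no mark and H3K4me3 alone were the groups with most genes. Of 22367 protein-coding genes, 7711 (34.5%) had H3K4me3 and H3K9me3 within 3000 bp of the start, 4031 (18%) had H3K4me3 alone and 7331 (32.8%) had no mark. All 3 marks were found at 1409 genes (6.30%), and H3K27me3 with H3K9me3 at 624 (2.79%). Single H3K27me3 marked 528 genes (2.36%), single H3K9me3 376 (1.68%), and H3K4me3 with H3K27me3 357 (1.60%). In all, H3K4me3 was at 13508 genes, H3K9me3 at 10120 (45.2%) and H3K27me3 at 2918. The counts with H3K9me3 rest on low scores: under a minimum score of 100 for every list, the genes with H3K4me3 and H3K9me3 numbered 2549, those with H3K4me3 alone 9349, and those with all 3 marks 618. The order of the groups moved with the setting, since no mark outnumbered H3K4me3 with H3K9me3 at a score of at least 50 (7640 and 6646 genes), with the 21482 top-scoring peaks of each list (7628 and 6196) and in a window of 1000 bp (8081 and 7509).

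The presence of 1 mark at a start went with that of another for some pairs. H3K27me3 was found at 13.1% [12.5 to 13.7] of genes with H3K4me3 and at 13.0% [12.3 to 13.7] of genes without it, a difference within counting error. This holds over all genes but not among genes of like CpG content, which are given below. H3K9me3 was found at 67.5% of genes with H3K4me3 and 11.3% of those without, and at 69.7% of genes with H3K27me3 and 41.6% of those without. Of the genes with H3K9me3, 90.1% also had H3K4me3. Where 2 marks were at a start, they mostly shared bases there: 7625 of 7711 genes (98.9%) with H3K4me3 and H3K9me3, 566 of 624 (90.7%) with H3K27me3 and H3K9me3, and 276 of 357 (77.3%) with H3K4me3 and H3K27me3.

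The groups of genes differed in the CpG content of their starts. The CpG ratio in 500 bp to either side of the start had a median of 0.549 over all genes. It was 0.760 for H3K4me3 with H3K9me3, 0.697 for all 3 marks, 0.655 for H3K4me3 with H3K27me3 and 0.653 for H3K4me3 alone. Genes with H3K27me3 and H3K9me3 had a median of 0.483, those with H3K27me3 alone 0.306, those with H3K9me3 alone 0.217 and those with no mark 0.180. Within genes of like CpG ratio H3K9me3 still went with the other marks. Among genes with a ratio of at least 0.6, H3K9me3 was at 7.91% of 177 genes with no other mark, 73.2% of 8585 with H3K4me3, 78.3% of 249 with H3K27me3 and 82.8% of 1195 with both. Among genes with a ratio below 0.3, these shares were 4.30%, 36.8%, 39.2% and 61.0%. H3K27me3 and H3K4me3 were related differently by CpG ratio. At a ratio of at least 0.6, genes with H3K4me3 numbered 1195 with and 8585 without H3K27me3. Genes without H3K4me3 numbered 249 and 177, so that H3K27me3 was more frequent there. Below 0.3 the numbers were 82 and 808 with H3K4me3 and 426 and 5935 without it, the reverse order. Genes also differed in length, with medians of 5870 bp for no mark, 22745 bp for H3K4me3 with H3K9me3, 30211 bp for all 3 marks and 31624 bp for H3K4me3 with H3K27me3, beside 15427 bp over all genes.

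Short motifs were counted on both strands of the 300 bases from 250 before to 50 after each start. The GC box GGGCGG was in 43.4% of all promoters, in 65.5% of those with H3K4me3 and H3K9me3, in 62.7% with all 3 marks, in 36.7% with H3K27me3 and H3K9me3 and in 10.1% with H3K9me3 alone. CCGGAA, the core bound by ETS factors, was in 17.5% of all promoters, 31.5% of those with H3K4me3 and H3K9me3, 19.7% of those with H3K4me3 alone, 13.4% with all 3 marks and 7.84% with H3K4me3 and H3K27me3. Both motifs contain a CpG, so that their shares move with CpG content. The TATA box TATAAA was in 13.4% of all promoters, 25.0% of those with no mark and 6.22% of those with H3K4me3 and H3K9me3, while CCAAT ranged from 32.8% to 39.1% over the 8 groups. No motif overlaps another by its whole length, and a match is a description of the sequence alone.

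The position of the marks around the start differed between groups. At genes with H3K4me3 and H3K9me3, the cover by H3K4me3 reached its top value, 97.7% of the genes, 100 bp into the gene, and that by H3K9me3 reached 84.5% at 200 bp. Both marks lay more on the gene side of the start. H3K9me3 covered 13.9% of these genes at 1000 bp upstream and 40.2% at 1000 bp downstream, and H3K4me3 66.0% and 94.9%. At genes with all 3 marks, H3K4me3 peaked at 200 bp downstream with 90.6%, H3K9me3 at 500 bp with 61.8% and H3K27me3 at 1000 bp with 76.9%. H3K27me3 covered the start itself in 67.8% of them. At genes with H3K27me3 and H3K9me3 the highest shares were 81.7% at 200 bp and 46.6% at 300 bp. Genes with H3K9me3 alone had no such centre, since 11.2% were covered at the start and the highest value was 13.0% at 1900 bp upstream.

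**Figure D3:**
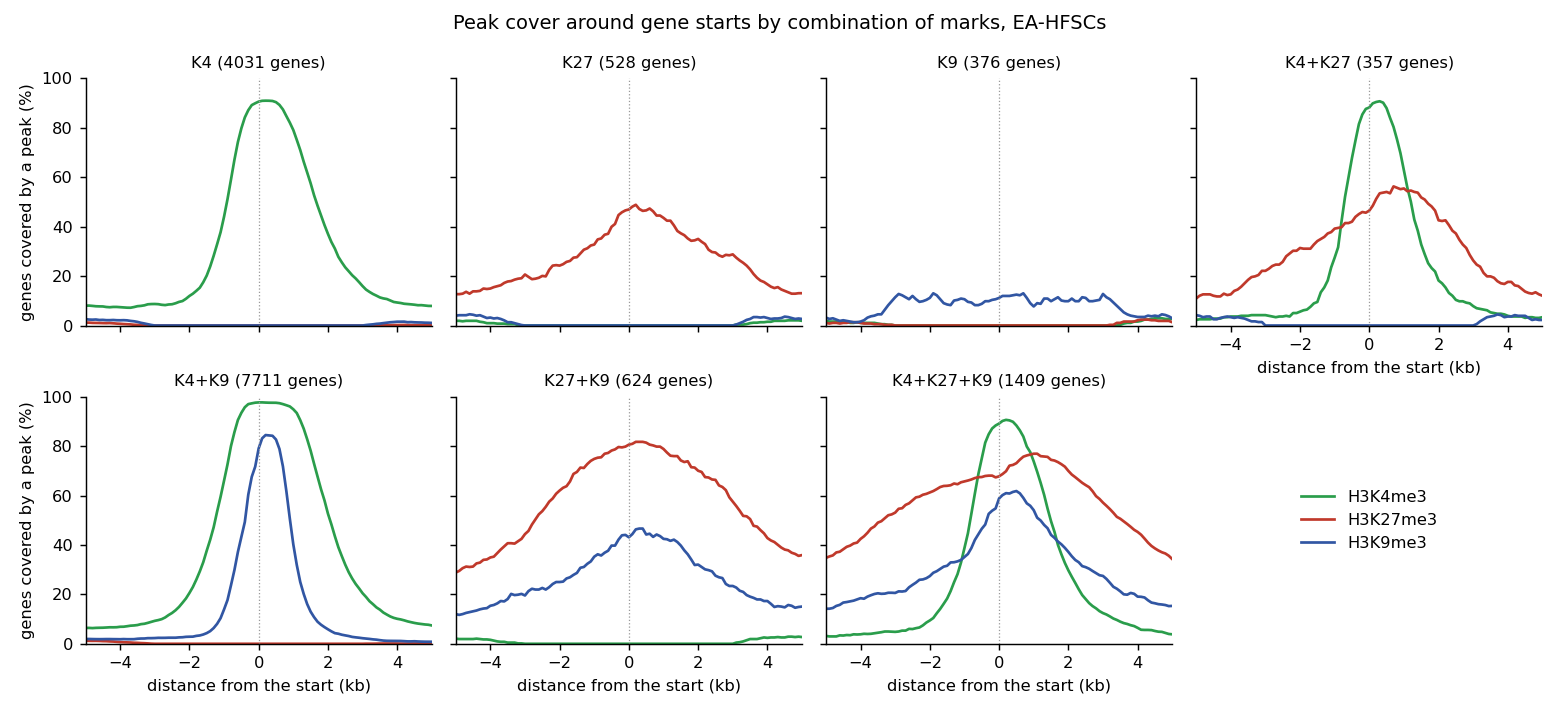
Share of genes (%) covered by a peak of each mark against the distance from the gene start in kb (positive into the gene), in 7 panels for the 7 combinations of marks at the start, with K4, K27 and K9 for H3K4me3, H3K27me3 and H3K9me3. At genes with H3K4me3 and H3K9me3 the cover of H3K9me3 reaches 84.5% just downstream of the start, and at genes with H3K9me3 alone it stays at or under 13.0%.

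In the plot of cover around starts, H3K9me3 beside another mark was most frequent at 200 to 500 bp downstream, while H3K9me3 alone had no centre there. The top was clearest at genes with H3K4me3 and H3K9me3. It was broad at genes with H3K27me3 and H3K9me3. H3K9me3 covered 35.3% of these at 1000 bp upstream, 43.1% at the start and 42.5% at 1000 bp downstream. The peaks differed in size accordingly. At starts with H3K4me3 and H3K9me3, H3K9me3 peaks had a median width of 1313 bp and a median score of 79.2, and at starts with H3K9me3 alone 573 bp and 50.8. H3K4me3 peaks had medians of 3422 bp and 1590 with H3K9me3, 2723 bp and 863 alone, 2421 bp and 460 with both other marks, and 2114 bp and 341 with H3K27me3. H3K27me3 peaks had medians of 4513 bp and 448 with both other marks and 4786.5 bp and 424 with H3K9me3, but 1706.5 bp and 75.7 alone and 2218 bp and 105 with H3K4me3. H3K27me3 without H3K9me3 was thus mostly narrow and of low score at starts.

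The genes with the strongest peaks in each group are given next, chosen by the worst rank of their marks. For H3K4me3 alone they were Arhgef12, an exchange factor of small GTPases, Gli2, an effector of Hedgehog signalling, and Tead1, a DNA-binding partner of Yap. Their H3K4me3 peaks scored 3219.84, 3213.11 and 3211.92, and the peak of Gli2 was 7716 bp wide. For H3K4me3 with H3K9me3 they were Fam192a and Rspry1, which start back to back within 1 H3K4me3 peak of 5297 bp and 1 H3K9me3 peak of 2387 bp nested in it, and Atxn2l, a relative of ataxin 2. At Atxn2l an H3K9me3 peak of 2155 bp with a score of 380 lay inside an H3K4me3 peak of 3936 bp with a score of 3100. These 3 genes show the arrangement that most genes of the group had, a narrower H3K9me3 peak inside H3K4me3 across the start.

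For all 3 marks the genes were Nr4a3, an orphan nuclear receptor, Mkx, a homeobox gene of tendon, and Hmga2, an architectural chromatin protein. Nr4a3 had H3K4me3 with a score of 3100 over 7385 bp, H3K27me3 with 1031.37 over 13564 bp that began at the start and ran into the gene, and H3K9me3 with 188.92 over 2452 bp. At Hmga2 the H3K27me3 peak of 6759 bp held the whole H3K4me3 peak of 4654 bp, and H3K9me3 with a score of 208.75 lay across an edge of the latter. For H3K27me3 with H3K9me3 they were Gm5607, a predicted gene, Tbx4, a T-box gene of the hindlimb, and Otp, a homeobox gene of the hypothalamus. All 3 had H3K27me3 with a score of 3100 over 18031 bp, 18454 bp and 18306 bp, and H3K9me3 inside it over 13031 bp, 8209 bp and 4538 bp with scores of 1363.89, 1249.82 and 1165.45.

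H3K4me3 with H3K27me3 had the leading genes of the poorest rank. These were Gorasp2, a Golgi protein, C1qtnf4 and Fam19a1, whose H3K27me3 scores were 183.71, 180.43 and 149.23. At Gorasp2 and C1qtnf4 the H3K27me3 peak did not touch the H3K4me3 peak, and at Fam19a1 their ends overlapped. For H3K27me3 alone they were Rps2-ps5, named as a ribosomal protein pseudogene, BC020535 and Neurog3, a factor of the endocrine pancreas. The peak counted for Rps2-ps5, 22459 bp with a score of 2930.08, began downstream of this short gene, while the peak of Neurog3, 11108 bp with a score of 1358.86, held the whole gene. For H3K9me3 alone they were Fezf1, a zinc finger factor of the forebrain, with 6107 bp and a score of 1076.01, and the predicted genes Gm10800 and Gm10801, neighbours on chromosome 2, with scores of 977.09 and 449.03. That stretch of chromosome 2 is known to gather reads in many sequencing assays, and its part in these peaks was not tested.

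Gene families were then read by combination, each beside the share of all genes given above. Genes of general cell functions mostly carried H3K4me3 with H3K9me3. The median CpG ratio was 0.804 for ribosomal protein, 0.729 for proteasome, 0.716 for NADH dehydrogenase and 0.815 for cell cycle genes. Of all genes with a ratio of at least 0.6 and H3K4me3 without H3K27me3, 73.2% had H3K9me3. The pair is thus usual at such starts and is not particular to these lists. Of 79 ribosomal protein genes, 59 had this pair and 17 H3K4me3 alone. Of 41 proteasome genes 33 had it, of 38 NADH dehydrogenase genes 30, and of 18 cell cycle genes 14, the other 4 (Bub1, Ccnb2, Ccne1 and Mcm3) having H3K4me3 alone. The cell cycle genes with the highest H3K9me3 scores were Pcna, the sliding clamp of DNA polymerase, with 175.01, and Mcm7, a subunit of the replicative helicase, with 133.66. Mki67 had 107.84. The enzymes of histone H3 methylation were alike, with H3K4me3 and H3K9me3 at 11 of 14, including Ezh2 and Eed of the Polycomb complex, and H3K4me3 alone at Ezh1, Setdb1 and Suv39h1. Of 368 Zfp genes 200 had the pair, 87 had H3K4me3 alone and 16 had H3K9me3 alone.

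Markers of bulge cells mostly fell on H3K4me3 alone or with H3K9me3. Among the 14 bulge markers 8 had H3K4me3 alone, 2 (Nfib and Runx1) had no mark at the outermost start and 4 had H3K4me3 with H3K9me3. The H3K9me3 scores of the latter were 51.63 at Lgr5, a receptor of R-spondins, 76.95 at Tcf7l2, a Wnt effector, 254.96 at Lrig1, a restraint on growth factor receptors, and 47.73 at Krt15, a keratin of the bulge. Of the 12 basal keratinocyte genes 7 had the pair and 3 had H3K4me3 alone. Among the 7, H3K9me3 scored 267.7 at Klf5 and 44.89 at Col17a1. The list of differentiated keratinocytes had 18 annotated entries for 14 symbols, as Flg is annotated 5 times. Of these 15 had no mark, and the others were Krt10 with H3K4me3 and H3K9me3, Tchh with H3K4me3 alone and Lor with all 3, where H3K27me3 scored 44.52. Krt10 is a keratin of the suprabasal epidermis, Tchh is trichohyalin of the inner root sheath and Lor is loricrin of the cornified envelope.

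The neural genes all carried H3K27me3, most of them with H3K9me3. Of 12 neural genes 8 had all 3 marks, 2 had H3K27me3 with H3K9me3, among them Olig2, and 2 had H3K27me3 alone (Slc17a6 and Gad1). Neurod1, a factor of neuron differentiation, had scores of 256.35 for H3K4me3, 2553.6 for H3K27me3 and 309.72 for H3K9me3. Atoh1, a factor of hair cells and cerebellar granule cells, had 1006.08, 1898.52 and 334.2. At Olig2, a factor of oligodendrocytes and motor neurons, H3K27me3 scored 660.2 and H3K9me3 820.35, while Gad1 had H3K27me3 at 54.65. Genes of the liver and of germ cells differed from these, with no mark at 8 of 10 hepatocyte and 6 of 10 germline genes, and H3K9me3 alone at the germline genes Sycp3 and Ddx4. Genes for receptors of smell and pheromones were nearly free of marks, with none at 1044 of 1113 olfactory and 309 of 320 vomeronasal receptor genes.

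Families of transcription factors were divided between the combinations. Of 43 Fox genes 15 had all 3 marks, among them Foxa1, Foxd1 and Foxl2, 8 had H3K4me3 alone and 6 had H3K4me3 with H3K9me3, among them Foxo1, Foxo3 and Foxm1. Of 19 Sox entries 9 had all 3 marks, while Sox9, a factor that bulge cells need, had H3K4me3 alone with a score of 3100. Sox4, which is annotated more than once, had H3K4me3 with H3K9me3, as did Sox2, where H3K9me3 scored 510.74 and H3K4me3 238.35. Of 9 Pax genes 6 had H3K27me3 with H3K9me3, 2 (Pax2 and Pax3) all 3 marks and 1 (Pax4) H3K27me3 alone. Of 13 T-box genes 5 had all 3 marks and 3 had H3K27me3 with H3K9me3, while Tbx1 had H3K4me3 alone. Among these families the members of the bulge marker list (Sox9, Tbx1 and Foxc1) were without H3K27me3. Since H3K27me3 was at 13.0% of all genes, this does not set them apart by itself.

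Of the 19 Wnt genes, which encode secreted ligands, some of them with a part in hair growth, 8 had all 3 marks, 4 H3K4me3 alone, 3 H3K4me3 with H3K9me3 and 2 H3K4me3 with H3K27me3. The ligands with H3K4me3 alone were Wnt4, Wnt5b, Wnt6 and Wnt9a, with scores from 672.9 to 753.06. Wnt7b, Wnt10a and Wnt1 had the pair with H3K9me3, with H3K4me3 scores of 2281.88, 1841.42 and 379.15. Wnt5a had all 3 marks, with H3K4me3 at 3100 and H3K27me3 at 148.9, whereas in Wnt16 the order was turned, with H3K4me3 at 195.34 and H3K27me3 at 537.64. Wnt8b had H3K27me3 with H3K9me3, and Wnt8a had no mark.

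**Figure D4:**
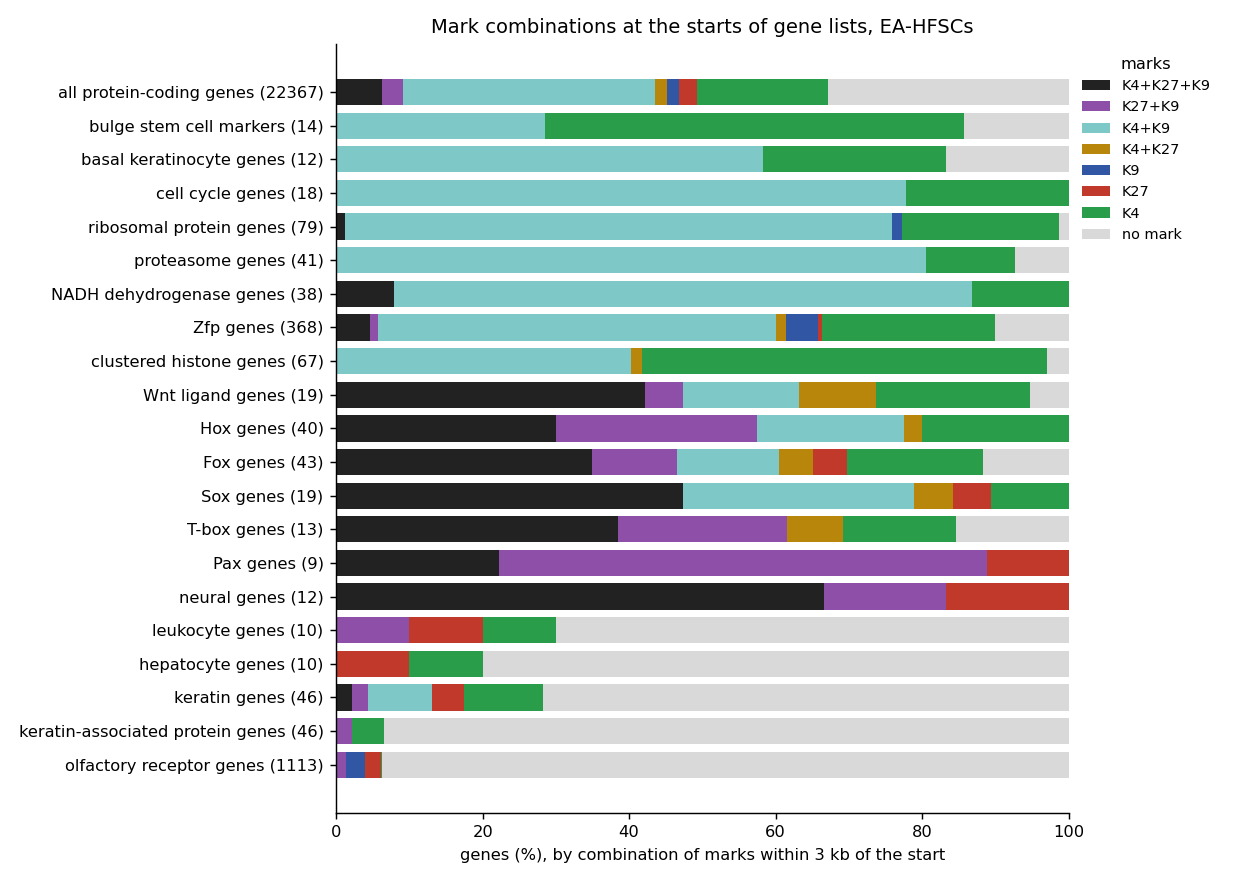
Share of genes (%) in each of the 8 combinations of marks at the start, as stacked bars for all protein-coding genes and 20 gene lists, with K4, K27 and K9 for H3K4me3, H3K27me3 and H3K9me3. Ribosomal protein, proteasome and cell cycle genes are mostly H3K4me3 with H3K9me3, neural genes mostly have all 3 marks, and olfactory receptor genes mostly have none.

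The plot of gene lists sets these families beside each other and beside all genes. The lists differ in size, from 9 Pax to 1113 olfactory receptor genes, so that a bar of a short list moves by much with a single gene. Keratin genes and genes of keratin-associated proteins, which build the hair shaft, were mostly free of marks, at 33 of 46 and 43 of 46 genes. Krt5 and Krt14, the pair of basal cells, had H3K4me3 with scores of 3100 and 3027.45, and Krt8 and Krt18, the pair of simple epithelia, both had H3K27me3, with 733.11 and 394.02. The 24 clustered protocadherin genes had H3K9me3 alone at 6 and no mark at 12. Of 67 clustered histone genes 37 had H3K4me3 alone (55.2%) and 27 had it with H3K9me3 (40.3%, beside 34.5% of all genes). The median CpG ratio of this list was 0.878. Of all genes with a ratio of at least 0.6, 22.6% had H3K4me3 alone and 61.5% had the pair. Beside those genes, the histone list thus had the pair less often and H3K4me3 alone more often. Of 41 beta defensin genes 32 had no mark.

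The Hox genes, which set position along the body, showed the marks in blocks. Of 40 Hox entries for 39 symbols (Hoxa3 is annotated more than once), 12 had all 3 marks, 11 H3K27me3 with H3K9me3, 8 H3K4me3 with H3K9me3, 8 H3K4me3 alone and 1 H3K4me3 with H3K27me3, and none was without a mark. In the Hoxa cluster, Hoxa9, Hoxa10, Hoxa11 and Hoxa13 had H3K27me3 with H3K9me3, Hoxa7 all 3 marks, and Hoxa2 to Hoxa6 H3K4me3 with or without H3K9me3. An H3K27me3 peak of 36973 bp and an H3K9me3 peak of 31789 bp, the widest of its list, lay over the starts of Hoxa9, Hoxa10 and Hoxa11, and an H3K4me3 peak of 27862 bp reached up to them at Hoxa7. In the Hoxb cluster, Hoxb13 had H3K27me3 with H3K9me3, Hoxb7 and Hoxb9 all 3 marks, Hoxb8 H3K4me3 with H3K27me3, and Hoxb1 to Hoxb6 H3K4me3 with or without H3K9me3. The widest H3K4me3 peak of the list, 58660 bp with a score of only 85.05, lay there.

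The Hoxc cluster was divided much like Hoxa and Hoxb, apart from all 3 marks at Hoxc12 and Hoxc13, and the Hoxd cluster was marked otherwise. In the Hoxc cluster, Hoxc13, a gene of the hair shaft, had an H3K4me3 peak of 6468 bp with a score of 3100 that lay between stretches of H3K27me3, and 2 narrow H3K9me3 peaks near the start. Hoxc8 also had H3K4me3 at 3100. Hoxc10 and Hoxc11 had H3K27me3 with H3K9me3, and Hoxc4, Hoxc5 and Hoxc6 had H3K4me3 with or without H3K9me3. The Hoxd cluster lay almost whole under H3K27me3 (99.9% of its bases) and H3K9me3 (90.0%), with H3K4me3 over 20.0%. In the other clusters H3K4me3 covered 62.0% (Hoxa), 51.7% (Hoxb) and 39.5% (Hoxc), H3K27me3 35.3%, 51.1% and 48.4%, and H3K9me3 42.0%, 36.1% and 53.7%.

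**Figure D5:**
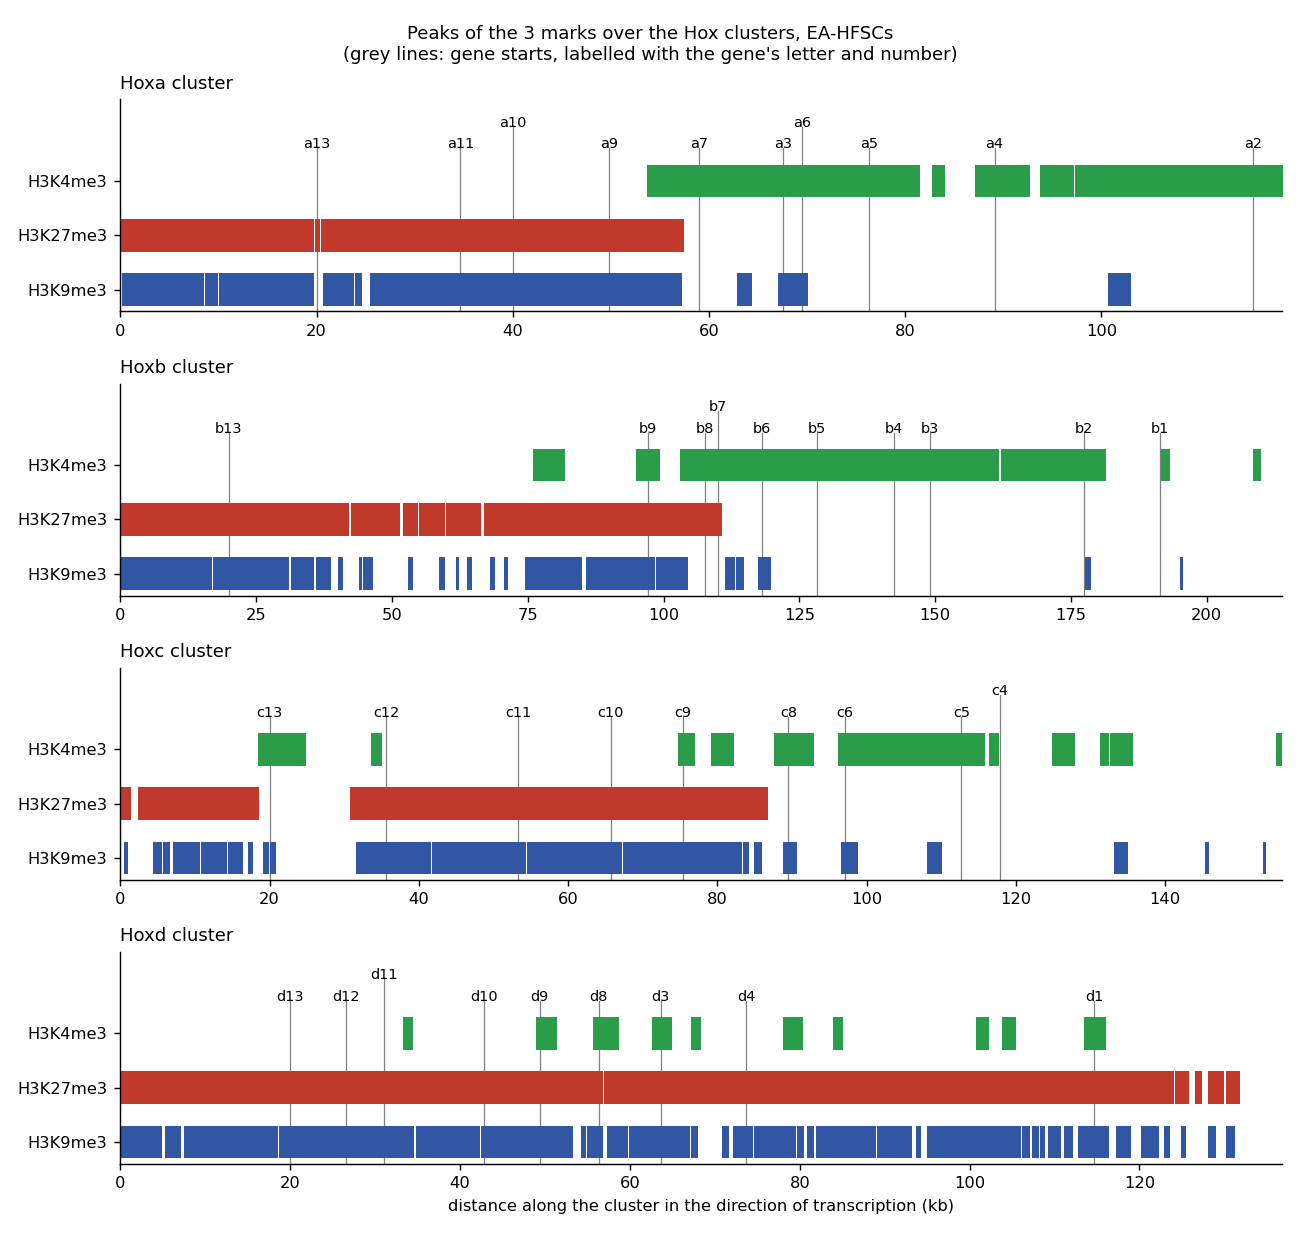
Peaks of H3K4me3, H3K27me3 and H3K9me3 as bars along the 4 Hox clusters, with the distance along the cluster in kb and the gene starts as grey lines (the Hoxa map is drawn up to 3 kb past the start of Hoxa2). H3K27me3 and H3K9me3 mostly lie together over the Hoxd cluster and over the 9 to 13 side of Hoxa and Hoxb, and H3K4me3 over the opposite side.

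The map of the Hox clusters shows H3K9me3 in wide blocks with H3K27me3 and in narrow peaks within H3K4me3 at single starts. Over the whole lists the widths ran the other way. H3K9me3 peaks that met H3K27me3 alone had a median of 764 bp, and those that met H3K4me3 alone 1222 bp.

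The same combinations were counted in the other 3 populations with their own lists, whose numbers of peaks and depth differ, so that the counts are set side by side and not compared by a test. H3K4me3 with H3K9me3 was found at 6 genes in LC-HFSCs, 220 in nEA-HFSCs and 1860 in nLC-HFSCs, and of the last 1508 had the same pair in EA-HFSCs. All 3 marks were found at 1, 94 and 222 genes, of which 1, 58 and 163 had all 3 in EA-HFSCs. H3K4me3 with H3K27me3 was found at 226, 2026 and 1037 genes. Of the H3K9me3 peaks, 0.354% of 1414 in LC-HFSCs, 0.912% of 17873 in nEA-HFSCs and 9.70% of 18236 in nLC-HFSCs overlapped H3K4me3, beside the 24.5% of EA-HFSCs. Overlap of H3K27me3 peaks with H3K4me3 was 13.9%, 15.7% and 10.6%, above the 8.94% of EA-HFSCs.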

How the data were processed

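The authors trimmed single-end reads (per the submitters' processing notes with Trimmomatic 0.22), aligned them to mm9 with Bowtie2, pooled independent experiments and called peaks against the IgG library of the same cells with MACS. They deposited 1 list per mark, with the position and a score of each peak. The score is the authors' value, a p-value on a negative logarithmic scale, and was used only to rank or filter peaks within a list. Depth cannot be read from the lists and was not used here, the study's methods state that peak detection was near saturation for H3K4me3 only, and the IgG samples have no list of their own here. The pooling removes the error between replicates, and the stricter limit for H3K4me3 shortens that list relative to the others.

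Overlap (at least 1 bp), nesting, distances and merged loci were computed with Python 3.11.15 and numpy 2.4.6, drawn with matplotlib 3.10.9, and the overlap and nesting steps were tested on simulated peaks. Genes were the 22367 protein-coding genes of GENCODE vM1 on NCBIM37 (mm9), with a window of 3000 bp to either side of the outermost start. Sequences come from the same assembly. Positions are 1-based. The 3 genes named for each combination have the best worst rank by score over their marks, the named loci are the widest of each combination, and members of the 29 gene lists could be named. A few items that these rules name are not reported here. The members and the lists were chosen with earlier results of these data known, so that no count over a list is independent evidence. The alternatives were a score of at least 50 or 100, an overlap of 50% of the counted peak, joining of peaks of 1 list less than 1000 bp apart, the 21482 top-scoring peaks of each list, the 19 autosomes, windows of 1000 and 2500 bp, and any transcript start.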

Additional observations from a re-analysis of the deposited data

How the results depend on the processing

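No value has a sign or a test, but the order of the values moved. With a score of at least 100, H3K9me3 peaks on H3K4me3 came to 54.5% and on H3K27me3 to 48.9%, H3K4me3 peaks on H3K9me3 to 17.2% and on H3K27me3 to 8.31%, and H3K27me3 peaks on H3K4me3 to 17.8% and on H3K9me3 to 19.7%. Nested were then 78.4% (H3K9me3 in H3K4me3), 94.4% (H3K9me3 in H3K27me3) and 55.5% (H3K4me3 in H3K27me3). Loci with more than 1 mark were 18.3% and those with all 3 numbered 711. Genes numbered 9349 (H3K4me3), 26 (H3K9me3), 575 (H3K4me3 with H3K27me3), 2549 (H3K4me3 with H3K9me3), 320 (H3K27me3 with H3K9me3) and 618 (all 3). With a score of at least 50 the overlaps, in the same order, were 33.4%, 31.8%, 36.2%, 9.78%, 11.4% and 26.7%, nesting of H3K9me3 84.8% and 87.5%, loci with more than 1 mark 24.5% and genes with H3K9me3 alone 211. With equal numbers of top-scoring peaks they were 36.8%, 34.6%, 33.8%, 10.3% for H3K27me3 on H3K4me3 and 22% for H3K27me3 on H3K9me3, nesting of H3K9me3 84.3% and 86.8%, loci with more than 1 mark 23.1% and genes with H3K9me3 alone 158. With an overlap of 50% of the counted peak the 6 overlaps were 22.9%, 27.5%, 14.9%, 8.33%, 2.95% and 11.4%. With near peaks joined, H3K9me3 on H3K27me3 was 22.8%, H3K4me3 on H3K9me3 44.1%, H3K27me3 on H3K4me3 10.6% and on H3K9me3 33.8%, H3K9me3 nested in H3K27me3 80.9%, H3K4me3 nested in H3K27me3 62.7% and loci with more than 1 mark 24.7%. A window of 1000 bp gave 175 genes with H3K9me3 alone. The 19 autosomes moved no overlap beyond counting error and no count beyond 1.5 times, and for the gene counts, the results they were run on, neither did a window of 2500 bp nor any transcript start. The most frequent overlap was no longer H3K4me3 on H3K9me3 with a score of at least 100, with equal numbers of peaks or with an overlap of 50%. The group with most genes was no longer H3K4me3 with H3K9me3 with a score of at least 50 or 100, with equal numbers of peaks or in a window of 1000 bp. The limit of 50 removed no H3K4me3 peak by construction, since that list starts at 50. At 100 the lists kept 17226 of 21482 H3K4me3, 8348 of 25534 H3K27me3 and 5737 of 42277 H3K9me3 peaks. Their median scores were 612, 68.8 and 54.5, and the causes of this difference were not tested. Depth limits the counts of H3K27me3 and H3K9me3 most, since by the study's methods the reads did not saturate their detection. The depth of each library was not used here.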

Other observations

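The X chromosome carried fewer marked starts than the autosomes, and in proportion the difference was larger for H3K9me3 and H3K27me3 than for H3K4me3. H3K4me3 was at 45.4% of 932 genes on the X chromosome and 61.1% of 21418 on autosomes, H3K27me3 at 4.72% and 13.4%, and H3K9me3 at 20.0% and 46.4%. All 3 marks were at 1.82% and 6.50%. Among genes with a CpG ratio of at least 0.6, H3K4me3 was at 90.8% and 96.0%, and of those with H3K4me3, 49.8% of 227 genes on the X chromosome and 74.9% of 9550 on autosomes also had H3K9me3. Male cells hold 1 X chromosome, and its part in these shares was not tested.

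Pmel, a melanocyte gene, had H3K4me3 with a score of 1783.92 and H3K9me3 with 90.88, the same values as at the cell cycle gene Cdk2, so that both genes were assigned the same peaks.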
